A study of Mus musculus with 6 samples.

Results

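The major urinary proteins are small secreted carriers that mouse liver makes in large amounts, and their genes were examined here in RNA sequencing counts from 6 mouse livers. The 6 genes described are Mup1, Mup2, Mup3, Mup18, Mup20 and Mup21, taken as the rows whose Ensembl gene ID maps to those symbols, out of 37991 gene rows in the count files. The files hold 35 rows with a Mup symbol, of which 18 are coding genes, and the other 12 coding rows and 17 pseudogene rows are used only as a setting for the 6. The genes were chosen by symbol with their counts and Het-to-WT differences in these libraries already known, which is a choice selected on those values, so the levels of the 6 genes and their difference between genotypes are given as a description. Fits over all genes are printed for their values and intervals, and nothing is read from a call among the 6.

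All 6 livers came from FVB mice aged 84 days. The 3 samples numbered 1 to 3 had the genotype Ing5 +/+ (WT), and another set numbered likewise carried a single MommeD48 allele of Ing5 (Ing5 MommeD48/+, Het). Ing5 encodes a subunit of histone acetyltransferase complexes, and the MommeD series of mutant mice was isolated by an effect on transgene silencing. The comparison asked what a single mutant copy does to liver transcripts. The labels do not say that each liver came from a separate mouse, so spreads and p-values measure only the differences between these samples. RNA came from liver, with no sorting of cells named in the labels, so fewer hepatocytes and less RNA per hepatocyte cannot be told apart.

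Total counts per library ran from 19840541 to 22041117. All livers had male transcripts, with 1644 to 1956 counts of the Y-linked gene Ddx3y and 1 to 6 of Xist. Hepatocyte markers, 8 genes with Alb among them, were all tested and summed to 91321 to 106676 CPM (counts scaled to a common library size, with TMM factors) in WT and 94819 to 113764 CPM among Het livers. Ing5 itself had 9.65 ± 0.807 CPM among WT and 9.33 ± 0.607 CPM among Het livers (SD, n = 3), a log2 fold change of -0.05 (SE 0.11).

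Major urinary proteins belong to the lipocalins, a family of barrel-shaped proteins that carry small hydrophobic molecules. In mice they are secreted by the liver, filtered by the kidney and released slowly from urine marks with bound volatile signals. The genes lie in a cluster on chromosome 4, and most of its central copies are nearly identical. In mouse liver their transcription depends on pulses of growth hormone acting through STAT5B, is stronger in males, and also responds to glucocorticoid, thyroid hormone and androgen. Mup20 encodes darcin, the male pheromone that attracts females and makes them remember where it was met. Mup1, Mup2 and Mup18 belong to the near-identical central group, while Mup3, Mup20 and Mup21 are diverged copies.

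How far each gene can be counted depends on how far its letters differ from those of its relatives, so a stretch of coding sequence is shown first for all 6 genes. It is the 60-base window, free of gaps in the alignment, that holds the most differences from Mup1, and the letters are from the GENCODE M21 transcripts of the C57BL/6J genome, 5′ to 3′. Capitals mark bases that differ from Mup1. The window covers coding bases 212 to 271 of Mup1, counted from the A of the start codon.
Mup1: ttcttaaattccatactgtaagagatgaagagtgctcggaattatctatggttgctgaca
Mup2: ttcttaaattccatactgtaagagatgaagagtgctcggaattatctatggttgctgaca
Mup18: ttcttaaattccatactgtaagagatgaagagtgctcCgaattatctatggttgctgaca
Mup20: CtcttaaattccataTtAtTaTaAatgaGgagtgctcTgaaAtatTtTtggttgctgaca
Mup21: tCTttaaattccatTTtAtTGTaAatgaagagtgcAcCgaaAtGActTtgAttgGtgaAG
Mup3: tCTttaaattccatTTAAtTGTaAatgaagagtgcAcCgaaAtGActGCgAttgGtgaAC
In this window Mup2 had 0 differences from Mup1 and Mup18 had 1. Mup20 differed at 11 bases, Mup21 at 19 and Mup3 at 21.

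The same division held over the whole coding sequence. Mup1 and Mup2 differed at 3 of 540 aligned bases, as did Mup1 and Mup18, and Mup2 and Mup18 differed at 2. Mup3 and Mup21 were each other's closest relatives among the 6, with 96.3% identity over 543 bases. Mup20 had 90.9% to 91.3% identity with the central genes and 88.03% with Mup3. Mup18 and Mup9, a central gene outside the 6, differed at 0 of 540 aligned bases, although the annotated coding sequence of Mup9 is longer (705 bases against 543).

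Sequence that belongs to a single gene was abundant in Mup3 and Mup21 and scarce in the central genes. Of all 100-base windows along the transcript, 97.1% in Mup3, 95.5% in Mup21 and 61.2% in Mup20 were found in no other gene of the annotation. The share was 12.8% in Mup1, 12.9% in Mup18 and 2.66% in Mup2. With 50-base windows it was 84.4%, 80.7% and 49.5% in Mup3, Mup21 and Mup20, and 5.24%, 10.4% and 0% in Mup1, Mup18 and Mup2. The 107 windows of 100 bases that belonged to Mup18 alone included 0 that lay wholly inside its coding sequence. Windows of Mup20 that were not its own were shared with the pseudogene Mup-ps19 (38.8% of 100-base windows), whose row held 5 to 15 counts per library. Neither the read length nor the treatment of reads that map to several genes is stated in the sources used here. Counts of Mup1, Mup2 and Mup18 are therefore uncertain as measures of those genes, and reads of FVB copies may be counted under the nearest C57BL/6J copy.

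**Figure D1:**
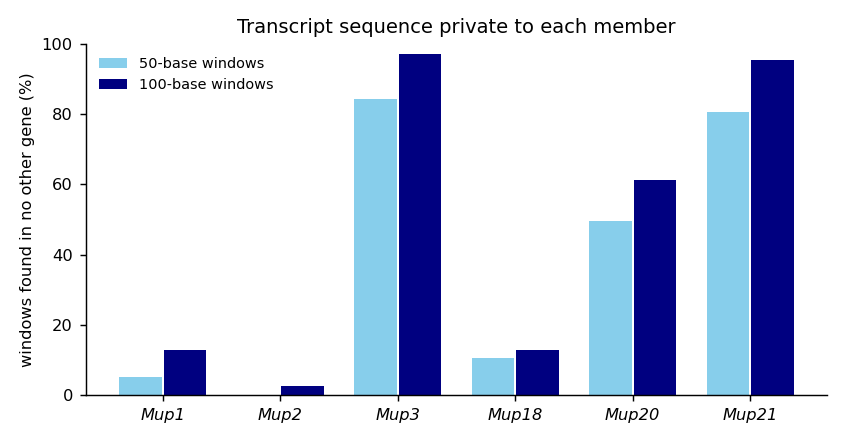
Share of 50-base and 100-base windows along the longest coding transcript of each gene that occur in no other annotated gene. The bars for Mup3, Mup20 and Mup21 stand far above those for Mup1, Mup2 and Mup18, and the 50-base bar of Mup2 is at 0%.

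The start regions fell into the same groups. RefSeq entries on GRCm38.p6 matched 4 of the 6 genes, and the 100 bases before the annotated start are shown because they place Mup2 beside Mup18 and Mup3 beside Mup21. They lie on the minus strand at chr4:60139857-60139956 (Mup2), chr4:61674095-61674194 (Mup18), chr4:62087318-62087417 (Mup3) and chr4:62150842-62150941 (Mup21). Capitals mark the letters TATATAA.
Mup2: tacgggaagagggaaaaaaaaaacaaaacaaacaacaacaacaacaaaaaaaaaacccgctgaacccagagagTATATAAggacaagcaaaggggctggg
Mup18: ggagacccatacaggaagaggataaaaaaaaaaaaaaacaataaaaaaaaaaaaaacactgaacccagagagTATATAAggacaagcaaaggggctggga
Mup3: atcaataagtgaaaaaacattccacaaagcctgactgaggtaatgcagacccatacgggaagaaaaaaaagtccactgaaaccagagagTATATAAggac
Mup21: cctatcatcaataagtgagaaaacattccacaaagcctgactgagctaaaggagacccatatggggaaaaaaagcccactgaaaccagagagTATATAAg
Counted from the RefSeq start, TATATAA lies at position -27 in Mup2 and -28 in Mup18, and at -11 in Mup3 and -8 in Mup21. The letters just before it are the same in all 4, so the windows end at different places along shared sequence. The positions depend on where RefSeq sets each start, and the starts used in these livers were not tested. The 250 bases before the start were aligned, and identity was taken over positions without gaps. Mup2 and Mup18 were 95% identical over 240 bases and Mup3 and Mup21 93.4% over 244. The mixed combinations had 85.4% to 88.8% over only 190 to 205 bases. The letters TATATAA, sought on both strands after the sequences had been read, were present once in each of the 4 and in 3.60% of 27025 genes. The palindrome TTCNNNGAA, the core of a STAT5-type site, had 0 matches in the 4 sequences and was present in 8.13% of genes. Likewise TATAAA (14.3% of genes) and TTGCNNAA, a C/EBP-type core (10.8% of genes), had 0 matches in the 4 sequences. These windows are short, and no match says only that those letters are not within them.

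Mup transcripts made up a large share of the liver message. The 6 genes together took 1.10% to 1.32% of all counts in a library, and all 35 Mup rows together 2.04% to 2.71%. The 6 genes held 47.4% to 53.8% of the Mup counts. The largest of the other rows was the central gene Mup10, with 109362 to 166182 counts per library. Mup3 alone was 76.8% to 86.5% of the sum of the 6, and it ranked between 6th and 9th among all genes in each library. Of its 100-base windows 97.1% were its own, against 2.66% to 12.9% in Mup1, Mup2 and Mup18. How shared reads were counted is not stated, and their part in these shares was not tested.

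Per kilobase of transcript, the order of the levels was Mup3, Mup21, Mup20, Mup1, Mup2 and Mup18. The mean over the 6 livers was 10054 CPM per kilobase for Mup3 (range 9443 to 10653) and 1982 for Mup21 (1467 to 2425). Mup20 had 490.1 CPM per kilobase (215 to 697) and Mup1 had 436 (386 to 537), and these neighbours overlap. Mup2 had 38.1 (32.4 to 43.3) and Mup18 had 19.1 (7.56 to 42.9), which overlap as well. The places of Mup1, Mup2 and Mup18 in this order carry the uncertainty of shared reads.

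Among the diverged copies, Mup3 was the steadiest. It had 217647, 209338 and 203804 counts in WT replicates 1 to 3 and 194258, 220404 and 193760 in Het replicates 1 to 3. Normalised, these were 10482, 9504 and 10480.4 CPM among WT and 9292, 10143 and 9457 CPM among Het livers. The groups overlap, and the highest liver exceeded the lowest 1.13-fold. The group means were 10156 ± 564 and 9631 ± 452 CPM (SD, n = 3), a log2 fold change of Het over WT of -0.08 (SE 0.12, 95% interval -0.34 to 0.18).

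Mup20, the darcin gene, varied far more. Its counts were 11179, 7340 and 3872 in WT replicates 1 to 3 and 8631, 13004 and 13255 in Het replicates 1 to 3. Its levels were 538, 333 and 199 CPM among WT and 413, 598 and 647 CPM among Het livers. WT replicate 3 stood lowest and Het replicates 2 and 3 highest, while WT replicate 1 lay above Het replicate 1, so the groups overlap. The means were 357 ± 171 and 553 ± 124 CPM, a log2 fold change of 0.63 (SE 0.38, 95% interval -0.31 to 1.57). Leaving out WT replicate 1 gave 1.05, and leaving out WT replicate 3 gave 0.34.

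Mup21 followed Mup20 from liver to liver with a smaller range. It had 32367, 23683 and 19310 counts in the WT and 24017, 35499 and 33634 counts in libraries of Het livers. These were 1559, 1075 and 993 CPM among WT and 1149, 1634 and 1642 CPM among Het livers. The order of the 6 livers was the same for both genes, from WT replicate 3 at the bottom to Het replicate 3 at the top. Across the 6 livers the log2 CPM of Mup20 and Mup21 had a Pearson r of 0.93 and a Spearman rho of 1.0, given as a description of genes counted in the same libraries. The means of Mup21 were 1209 ± 306 and 1475 ± 282 CPM, a log2 fold change of 0.29 (SE 0.20, 95% interval -0.17 to 0.74), which became 0.51 without WT replicate 1 and 0.16 without WT replicate 3.

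Among Mup1, Mup2 and Mup18, Mup18 set livers apart most sharply. Its counts were 156, 193 and 150 in libraries of WT livers, and 147, 866 and 728 in libraries of Het livers. These were 7.51, 8.76 and 7.71 CPM among WT and 7.03, 39.9 and 35.5 CPM among Het livers. Het replicate 1 lay below every WT liver, while Het replicates 2 and 3 lay far above all others, so the groups overlap and there is no value in between. The means, 7.996 ± 0.671 and 27.5 ± 17.8 CPM, gave a log2 fold change of 1.78 (SE 0.71, 95% interval -0.10 to 3.66). Without Het replicate 1 the log2 fold change was 2.24 and Mup18 was among 10 genes past the threshold, in a fit that drops the Het liver with the low value and so supports nothing, and without Het replicate 2 it was 1.41. Beside it, Mup9, which matches Mup18 over the aligned coding bases, had 2774, 2822 and 3077 CPM among WT and 2406, 4032 and 3372 CPM among Het livers, also highest in Het replicates 2 and 3. Mup18 counts were 0.251 to 0.310 per 100 Mup9 counts in the WT livers and Het replicate 1, and 0.989 and 1.05 in Het replicates 2 and 3. The part that shared reads have in the Mup18 values was not tested.

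Mup1 and Mup2, the other central genes, varied less than Mup18, Mup20 and Mup21. Mup1 had 7672, 7872 and 7651 counts in the WT and 7720, 9565 and 10199 counts in libraries of Het livers. Its levels were 369.5, 357 and 393 CPM among WT and 369, 440.2 and 498 CPM among Het livers. Het replicates 2 and 3 were the highest and Het replicate 1 lay among the WT livers. The means were 373 ± 18.3 and 436 ± 64.4 CPM, a log2 fold change of 0.22 (SE 0.13, 95% interval -0.06 to 0.50), and it was 0.12 without Het replicate 3.

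Mup2 had 787, 708 and 754 counts in the WT and 628, 718 and 822 counts in libraries of Het livers. These were 37.9, 32.1 and 38.8 CPM among WT and 30.04, 33.04 and 40.1 CPM among Het livers, with both the lowest and the highest value among Het livers. The means were 36.3 ± 3.60 and 34.4 ± 5.18 CPM, a log2 fold change of -0.08 (SE 0.12, 95% interval -0.34 to 0.19). Its sign turned without Het replicate 1, to 0.013, and without Het replicate 3 the value was -0.20.

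**Figure D2:**
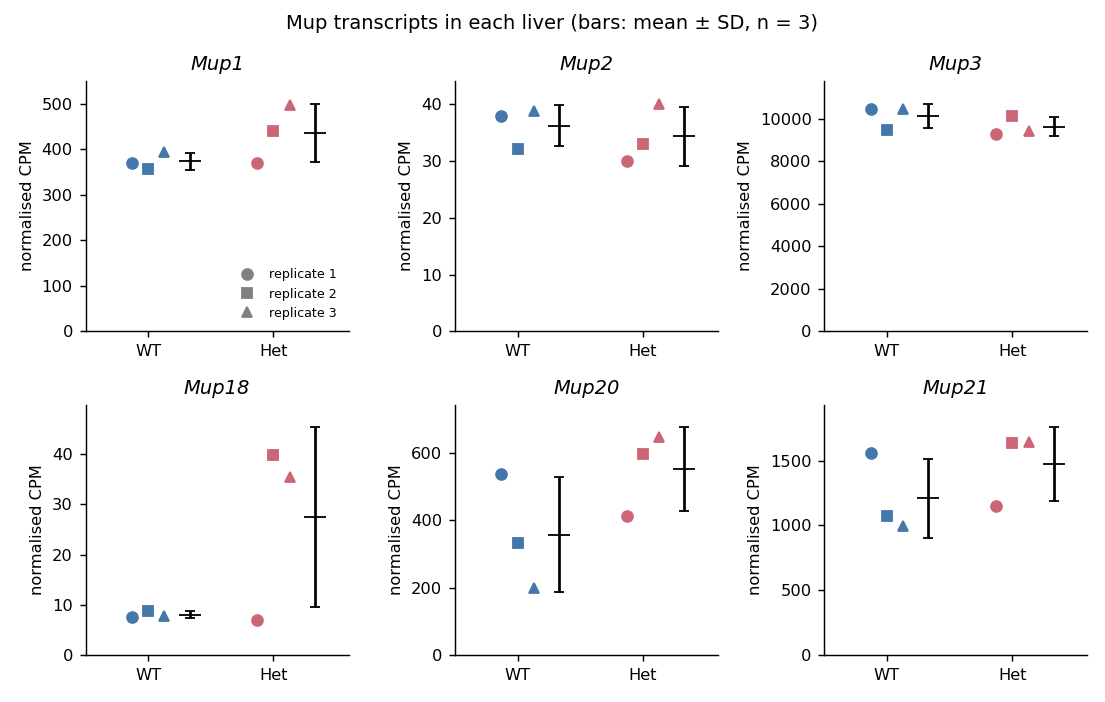
Normalised CPM of the 6 genes in each liver, with marker shape for the replicate number and black bars for the mean ± SD of 3 livers; each axis starts at 0. Mup3 lies between 9292 and 10482 CPM in all livers, Mup20 runs from 199 to 647 CPM, and Mup18 stands at 39.9 and 35.5 CPM in Het replicates 2 and 3 against 7.03 to 8.76 CPM elsewhere.

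The sum of the 6 genes differed little between the livers. It was 12995, 11311 and 12112 CPM among WT and 11259, 12889 and 12319 CPM among Het livers, with a group mean of 12139 ± 842 and 12156 ± 827 CPM. The difference of the mean log2 values, Het minus WT, was 0.0020 (SE 0.08). The part that shared reads have in the sum was not tested. Since Mup3 dominates the sum as counted, the other 5 genes were also summed, an addition made after the values were seen. They gave 2512, 1807 and 1632 CPM among WT and 1968, 2745 and 2862 CPM among Het livers. Again WT replicate 1 and Het replicate 1 overlap the other group, and the log2 difference was 0.35 (SE 0.25).

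In the edgeR fit over all genes, 0 of 12631 genes (0%) passed an adjusted p of 0.05, and 547 (4.33%) had an unadjusted p under 0.05. All 6 Mup genes passed the low-count filter, 0 of them were called, and their 95% intervals all included 0. With DESeq2, which called 13 genes (0.103%), and with limma-voom, which called 0 (0%), the count of Mup genes called was also 0. Fitted values were higher in Het livers for 4 of the 6 and lower for 2, with a median log2 fold change of 0.25, beside 50.3% of all genes higher and a median over all genes of 0.00088. WT and Het values did not overlap for 1136 genes (8.99%), of which 596 (4.72% of those tested) were higher in Het livers, and for 0 of the 6. Because the genes were listed with these values known, nothing is read from the counts.

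**Figure D3:**
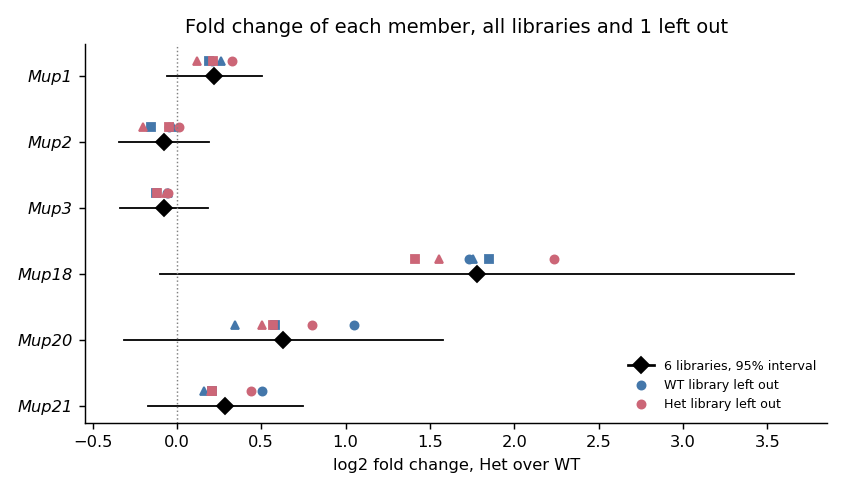
Log2 fold change of Het over WT for each gene with its 95% interval from the fit of 6 libraries (black), and the values with a single library left out (blue for WT, red for Het, marker shape for the replicate number). All 6 intervals include 0, Mup18 has the widest, and the values of Mup20 run from 0.34 to 1.05.

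The members differed widely in their spread within a genotype. The within-group SD of log2 CPM was 0.07 for Mup3, 0.16 for Mup1 and 0.18 for Mup2. It was 0.32 for Mup21, 0.56 for Mup20 and 0.99 for Mup18. The median over the 8056 genes with a mean log2 CPM of at least 3 was 0.12, so Mup3 lay under it and the other 5 above. The spread of Mup20 was larger in WT (SD 0.72) than in Het livers (0.35), and that of Mup18 was 0.12 in WT and 1.39 in Het livers.

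Ratios within a library do not depend on the library's scaling. For Mup20 and Mup21 per 100 Mup3 counts the order of the livers was that of their CPM. Per 100 Mup3 counts there were 5.14, 3.51 and 1.90 Mup20 counts in WT and 4.44, 5.90 and 6.84 in Het livers. There were 14.9, 11.3 and 9.47 Mup21 counts per 100 Mup3 counts in WT and 12.4, 16.1 and 17.4 in Het livers. Thus Mup20 moved 3.60-fold and Mup21 1.83-fold against Mup3 between the extreme livers. Mup1 made up 3.52, 3.76 and 3.75 counts per 100 Mup3 counts in WT and 3.97, 4.34 and 5.26 in Het livers, and here the groups did not overlap. Other ratios chosen after the values were seen did not overlap either: Mup20 per 100 Mup21 counts was 34.5, 31.0 and 20.1 in WT and 35.9, 36.6 and 39.4 in Het livers, and Mup2 per 100 Mup1 counts was 10.3, 8.99 and 9.85 in WT and 8.13, 7.51 and 8.06 in Het livers. Of 9 ratios formed, 4 did not overlap, beside 8.99% of all genes tested. The ratios share counts with each other and were not tested, and nothing is read from their number. Mup2 also shared 55.7% of its 100-base windows with Mup1, and the part of shared reads in their ratio was not tested.

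The remaining coding Mup rows show what surrounds the 6 genes. Of the 12, 10 passed the low-count filter and 0 of these were called, 8 having higher and 2 lower fitted values in Het livers. Mup10, the most abundant, had 7472, 7545 and 7330 CPM among WT and 5231, 6457 and 7242 CPM among Het livers, values that do not overlap (log2 fold change -0.24, SE 0.14). Mup16 had 898, 825 and 1066 CPM among WT and 847, 1507 and 1241 CPM among Het livers, highest in the same livers as Mup18. Some rows split the livers otherwise. Mup7 was low in WT replicates 1 and 3 (346 and 366 CPM) and between 749 and 1140.3 CPM in the other livers. Mup5 was low in WT replicate 1 and Het replicate 2 (3.61 and 3.18 CPM) and between 33.8 and 41.2 CPM in the others. These sets of livers overlap in part but are not the same.

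**Figure D4:**
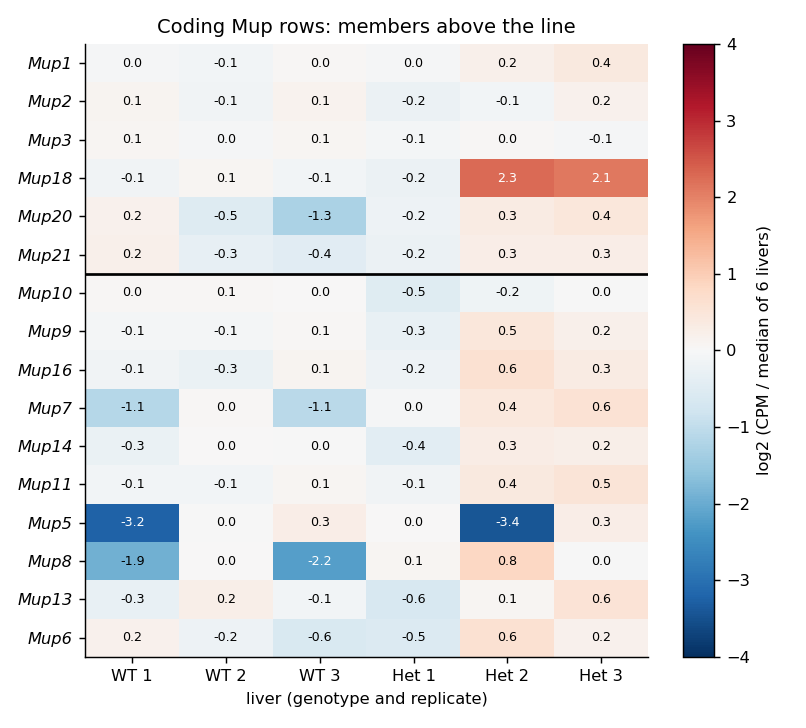
Log2 of CPM over the median of the 6 livers for the 6 genes (above the line) and the 10 other coding Mup rows that passed the low-count filter, with the value printed in each cell. Mup18 is high in Het replicates 2 and 3, Mup20 is low in WT replicate 3, Mup7 and Mup8 are low in WT replicates 1 and 3, and Mup5 is low in WT replicate 1 and Het replicate 2.

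Genes of the growth hormone pathway, the upstream signal of Mup transcription, are given next. Of 26 listed, 24 were tested and 0 were called higher or lower; 14 had higher and 10 lower fitted values, with a median of 0.02. Ghr, the growth hormone receptor, had 729 ± 54.6 CPM among WT and 743 ± 64.1 CPM among Het livers, and Igf1, its best-known hepatic target, had 913 ± 102 and 939.7 ± 6.48 CPM. Of 16 reported controls of Mup genes, 15 were tested, 0 were called, and 9 had higher and 6 lower fitted values (median 0.07). Among them, the nuclear receptor Hnf4a had 584 ± 112 and 568 ± 37.9 CPM in WT and Het livers. Its lowest value, 457 CPM, and its highest, 666 CPM, were in WT replicates 3 and 2, the livers with the least Mup20. These are transcript levels only, and the part that these genes have in the Mup values was not tested.

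Mup levels stood beside those of other sex-biased liver genes. Of 20 tested male-biased genes 0 were called, 17 had higher fitted values in Het livers and 3 lower (median 0.16), and 3 did not overlap between groups, all higher in Het livers (4.72% of all genes did so). Their mean score, the log2 CPM relative to the mean of the 6 livers, was -0.01, -0.20 and -0.15 in WT and -0.03, 0.12 and 0.27 in Het livers. Het replicates 2 and 3 lead it, as they lead Mup20 and Mup21. Cyp7b1, an oxysterol hydroxylase, and Hsd3b5, a steroid dehydrogenase, are among the 3. Of 20 tested female-biased genes 0 were called, 18 had lower and 2 higher fitted values (median -0.56), and 5 did not overlap, all lower in Het livers (4.28% of all genes did so). Their score was 0.28, 0.18 and 0.41 in WT and 0.04, -0.34 and -0.56 in Het livers. Cyp2b9, a female-biased cytochrome, had 86.2, 102 and 99.6 CPM among WT and 97.8, 20.8 and 20.9 CPM among Het livers, so it was low in the livers where Mup18 was high. Of all genes tested, 50.3% had higher fitted values in Het livers. The lists were chosen with earlier results of these data known, so nothing is read from how their genes split. Whether these lists have a part in the Mup values was not tested.

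**Figure D5:**
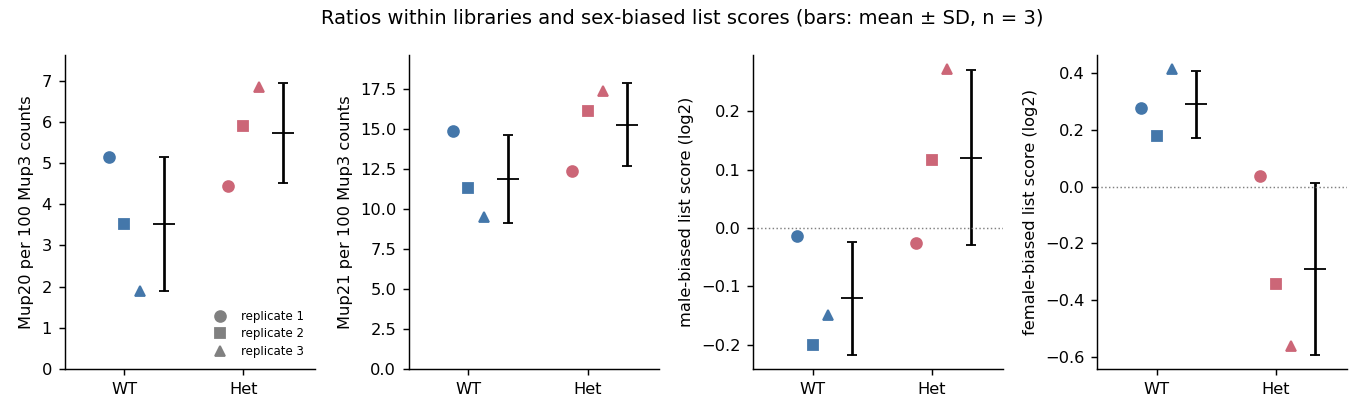
Counts of Mup20 and of Mup21 per 100 Mup3 counts (axes start at 0), and the mean log2 score of the male-biased and female-biased lists, in each liver with the mean ± SD of 3 livers. Both ratios and the male-biased score are highest in Het replicate 3, where the female-biased score is lowest at -0.56.

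Lipocalins outside the Mup cluster gave a mixed picture. Of 22 listed 10 were tested and 0 were called, with 2 higher and 8 lower fitted values (median -0.35). The retinol carrier gene Rbp4 had 2588 ± 236 CPM among WT and 2775 ± 104 CPM among Het livers, and Ambp, the alpha-1-microglobulin precursor gene, had 2096 ± 211 and 1928 ± 207 CPM. Some lipocalins of this list, Lcn2 and the Orm genes among them, are acute-phase genes. The acute-phase list had 24 of 24 genes tested, 0 called, 1 higher and 23 lower, and its score was 0.64, 1.45 and -0.84 in WT and 0.41, -0.67 and -0.996 in Het livers. That score was low in WT replicate 3, which had the least Mup20, and in Het replicates 2 and 3, which had the most. It was highest in WT replicate 2, whose Mup20, at 333 CPM, was the next lowest. Any part of the acute-phase state in the Mup values was not tested. Fasting genes, 20 of 20 tested and 0 called, had 6 higher and 14 lower values, and their score was highest in Het replicate 1 (0.41). The share of all genes with higher fitted values was 50.3%. These lists too were chosen with earlier results known, and nothing is read from their splits.

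Markers of other cell types were summed in the same livers. The 6 Kupffer cell markers summed to 103 to 187 CPM among WT and 114 to 201 CPM among Het livers, with 0 of them at 0 throughout, and were lowest in WT replicate 3 and Het replicate 3. Endothelial markers (5 genes) summed to 75.9 to 100.1 and 74.2 to 93.2 CPM, stellate markers (5) to 146 to 213 and 194 to 238 CPM, and cholangiocyte markers (5) to 29.5 to 33.4 and 26.9 to 29.1 CPM. Of the 4 pancreatic acinar markers, Cpa1 and Prss2 were at 0 in all livers and Ctrb1 was near 0, so their sum, almost all of it Cela1, was 38.2 to 57.0 and 45.3 to 60.5 CPM. The 2 erythroid markers in the files summed to 91.4 to 124 and 57.3 to 104 CPM, the lowest in Het replicate 2. The part that other cell types have in the Mup values was not tested.

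The genes whose levels ran most like those of Mup20 were sought among 8041 genes outside the cluster with a mean log2 CPM of at least 3. Among the closest by Pearson r of log2 CPM over the 6 livers were A130010J15Rik (0.996), Chd8 (0.989), Rabep1 (0.985) and Mapk14 (0.983). Spearman rho was 1.0 for each of these. Without WT replicates 2 and 3, the livers farthest from the median, r stayed between 0.963 and 0.984. Among the closest to the sum of the 6 genes were Srd5a1 (0.994), the steroid 5-alpha-reductase gene, Trafd1 (0.988), Pi4k2b (0.987) and the unnamed ENSMUSG00000037814 (0.961), with rho from 0.83 to 1.0. Without WT replicate 2 and Het replicate 1, the farthest from the median for the sum, r ran from 0.84 to 0.99. With only 6 livers, 71 genes reached an r of 0.9 with Mup20 and 38 with the sum, so these names describe likeness in these libraries and carry no p.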

How the data were processed

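The authors deposited 1 file per liver with whole-number counts per Ensembl gene ID, not normalised. The submitters' processing notes name TopHat2 2.0.11, HTSeq 0.6.1 and DESeq with the build mm9, without their roles. Not given in the sources used here are the annotation release, the read length, the strand setting and how reads mapping to several places were counted. RNA was poly(A) selected and made into libraries with an Illumina TruSeq kit, per the labels' protocols. Symbols were matched by ID for 32919 of 37991 rows. The 6 genes, the lists and the tests were chosen with earlier results of these data known. Mup12, Mup15, Mup17 and Mup22 entered the sequence comparisons, but no row of the count files mapped to those symbols. Windows found in them were still counted as shared, Mup12 holding 75.4% of the 100-base windows of Mup1.

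Counts were filtered with filterByExpr by genotype (12631 genes), scaled with TMM (factors 0.977 to 1.02) and fitted in edgeR 4.0.16 (R 4.3.3) with the robust quasi-likelihood model, genotype being the sole factor. P-values were adjusted by Benjamini-Hochberg over all genes at a threshold of 0.05. The SE and 95% interval were derived from each gene's F statistic. A count of 0, for which 3 counts were allowed, corresponds to at most 0.136 to 0.151 CPM per library, for counting error only. The steps were tested on simulated counts. Named genes were the 6 genes, other Mup rows, some of the 2 most abundant and 2 of smallest p in each list, and those among the 5 most alike by Pearson r. Some genes that this rule names are not reported here.

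Transcript windows and coding sequences are from GENCODE M21 (GRCm38), using the longest coding transcript per gene, and coding sequences were aligned with MAFFT 7.526. Start regions are RefSeq's on GRCm38.p6. Both are of another build than the counts and of C57BL/6J, so they serve for letters and not for the counts' positions. Alternatives were DESeq2 1.42.0 and its size factors, limma-voom (limma 3.58.1), other filters, the replicate number entered as a block, library sizes that leave out Mup genes or the top 20 genes, a fit that is not robust, a call at 0.1, and each library left out. The newer edgeR quasi-likelihood fit and the sum without Mup3 were added after the data were seen.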

Additional observations from a re-analysis of the deposited data

How the results depend on the processing

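Of the 12631 genes tested, 0 passed in the fit of all libraries. The count was 1 with no low-count filter and 13 with DESeq2, and leaving out single libraries gave 0 to 17, with 17 without WT replicate 3 and 10 without Het replicate 1. The log2 difference of the Mup sum, 0.0020, lay between -0.048 and 0.056 with a library left out, and moved to 0.35 without Mup3. Over the other planned settings it ran from -0.02 without Mup20 to 0.0021 with DESeq2 size factors. Leaving Mup genes out of the library sizes gave 0.0020 again. TMM was then computed on the same counts, so that setting could hardly move any value. The number of the 6 genes with higher fitted values in Het livers, 4, was 4 to 5 with a library left out, 5 being without Het replicate 1 where Mup2 turned to 0.013 (its lowest was -0.20, without Het replicate 3), and 4 under every other setting run. With a library left out the log2 fold change ran from 1.41 to 2.24 for Mup18, from 0.34 to 1.05 for Mup20, from 0.16 to 0.51 for Mup21 and from 0.12 to 0.33 for Mup1. With the replicate block 0 genes passed and 4 Mup genes were higher in Het livers. For the sum, the block leaves the difference at 0.0020 by arithmetic, so that value tests nothing. Its SE was 0.115 with the block and 0.081 without it. Same-numbered livers did not deviate together throughout (r = -0.02, -0.08 and 0.22 for numbers 1 to 3). The highest r, 0.25, was between WT replicate 2 and Het replicate 1. With so few livers this cannot tell whether same-numbered livers share more than a number. The lowest counts among the 6 genes were those of Mup18, at 147 in Het replicate 1.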

Other observations

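Single Mup rows split the livers in different ways. Mup8 had 3.76 and 3.09 CPM in WT replicates 1 and 3 and 14.0 to 25.2 CPM in the other 4 livers, the same division as Mup7. The ratio of Mup1 to Mup10 counts kept the genotypes apart with little spread, at 4.95, 4.74 and 5.37 Mup1 counts per 100 Mup10 counts in WT and 7.06, 6.82 and 6.87 in Het livers. This ratio was chosen after the values were seen and was not tested. Mup10 alone also did not overlap between the groups, as was so for 8.99% of all genes tested. Mup1 shared 44.6% of its 100-base windows with Mup10, and the part of shared reads in the ratio was not tested. Of the 17 pseudogene rows 4 passed the low-count filter, and all pseudogenes together held 129 to 195 counts per library, so few counts were assigned to them.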
